A study of Rattus norvegicus with 23 samples.

Results

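The subject is the RNA, in dorsal hippocampus, of 10 genes linked to the formation of adult-born dentate gyrus neurons and the division of their precursors. These are Dcx, Sox11, Sox4, Mki67, Top2a, Igfbpl1, Neurod1, Eomes, Prox1 and Draxin. A gene was measured where the annotation of the Affymetrix Rat Gene 1.0 ST array gave a probe set its symbol and no other, which left 7 probe sets, 1 for a gene, of 29211 on the array. These were Dcx (10932746), Sox11 (10889415), Sox4 (10794967), Top2a (10746976), Igfbpl1 (10876551), Neurod1 (10846685) and Prox1 (10770680). The only probe set listed for Eomes is shared with another gene, Mki67 and Draxin have none in the annotation used, and these 3 genes were not analysed here. All 7 measured genes passed a minimum signal of 40 on 4 arrays, and none had a blank value on any of the 23 arrays.

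Dorsal hippocampus of 1 hemisphere was profiled in male F344 rats, an inbred strain used in aging research, with 1 array for each rat. Young controls (YC, n = 6) were 5 to 6 months old, labelled as sham and, in the methods, not injected. Aged vector controls (AC, n = 5), short-term FKBP1b rats (ST, n = 6) and long-term FKBP1b rats (LT, n = 6) were all 21 months old and had all received an adeno-associated virus (AAV) in both hippocampi, aimed at CA1. The vector carried green fluorescent protein in AC and rat FKBP1b, a negative regulator of calcium release, in ST and LT, behind a CaMKII promoter, which is active in excitatory neurons. The labels put the injection at 18 months in AC and ST and at 12 in LT, while the methods put it at 13 in AC and LT and at 19 in ST. Age, surgery and vector all differ between AC and YC and cannot be told apart, nor can transgene and titer between AC and the FKBP1b groups, since the control vector was given at the higher titer. ST and LT rats were chosen for arrays because their FKBP1b expression was above the median of their groups. Fkbp1b itself (probe set 10940524 in the annotation used) read 353 to 411 on the YC arrays, 364 to 458 on AC, 427 to 881 on ST and 843 to 1217 on LT. The paper, by contrast, describes the array as lacking this gene and measured its expression by quantitative PCR.

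In the adult dentate gyrus, radial glia-like stem cells of the subgranular zone divide and give rise to Eomes-positive intermediate progenitors, then to Dcx-positive neuroblasts and finally to Prox1-positive granule neurons. Production of these neurons is well known to be far lower in old than in young rodents. The same genes are not restricted to this lineage. Dcx and Sox11 also mark neuroblasts of the subventricular zone, Prox1 is kept for life by mature granule cells, and Neurod1 is likewise present in mature granule cells. In whole tissue, fewer cells of a type and less RNA per cell cannot be told apart.

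Dcx and Sox11 moved together across the arrays, Neurod1 moved against Dcx, and Top2a is the only measured cell division gene among the 10. For these reasons the sequences just before the start sites of these 4 genes are shown. Each is the 250 bases upstream of the RefSeq start (build GRCr8), read on the gene's strand, which is the minus strand for all 4. Capitals mark the E-box CANNTG, bound by NeuroD-type factors, in Dcx, Sox11 and Neurod1, and in Top2a the CCAAT box and the motif TTTGAA of the cell cycle homology region, on either strand, both known from promoters of cell cycle genes.
Dcx: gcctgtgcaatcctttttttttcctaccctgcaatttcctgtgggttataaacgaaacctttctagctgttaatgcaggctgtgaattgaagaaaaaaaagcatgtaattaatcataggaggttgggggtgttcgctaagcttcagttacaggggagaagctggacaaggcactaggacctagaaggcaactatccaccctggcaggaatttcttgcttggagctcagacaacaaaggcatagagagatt
Sox11: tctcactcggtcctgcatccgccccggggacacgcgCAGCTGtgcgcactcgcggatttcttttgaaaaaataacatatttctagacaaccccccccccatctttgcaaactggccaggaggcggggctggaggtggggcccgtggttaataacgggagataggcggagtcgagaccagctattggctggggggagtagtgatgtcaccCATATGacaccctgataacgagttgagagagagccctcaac
Neurod1: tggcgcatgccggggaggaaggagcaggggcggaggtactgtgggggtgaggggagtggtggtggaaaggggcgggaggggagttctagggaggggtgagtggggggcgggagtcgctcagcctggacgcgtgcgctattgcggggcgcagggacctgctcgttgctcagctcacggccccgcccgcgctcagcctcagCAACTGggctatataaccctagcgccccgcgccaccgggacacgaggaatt
Top2a: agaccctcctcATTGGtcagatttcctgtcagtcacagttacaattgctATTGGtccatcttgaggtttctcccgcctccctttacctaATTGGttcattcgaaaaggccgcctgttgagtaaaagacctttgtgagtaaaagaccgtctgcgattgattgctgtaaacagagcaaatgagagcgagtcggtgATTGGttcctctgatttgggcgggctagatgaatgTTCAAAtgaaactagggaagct
These lie at chrX:112304162-112304411, chr6:49738795-49739044, chr3:84770455-84770704 and chr10:84473094-84473343. Windows were given for 8 of the 10 genes, and Sox4 and Prox1 were the genes without one. With both strands searched and overlapping matches counted, the Top2a window held 4 CCAAT matches and 1 TTTGAA match. At least 1 CCAAT match was found in 34.0% and 4 or more in 0.56% of all 33469 such windows, and TTTGAA in 16.2%. The Dcx window held no E-box, the Sox11 window 2 (1 of them CAGCTG) and the Neurod1 window 1, against 65.5% of windows with at least 1 E-box, 12.0% with CAGCTG and 14.0% with CAGATG, a form that none of these windows held. AACAAT, the core of SOX sites, was in 10.3% of windows and in none of the 4. A match is a description of the letters and not evidence of binding.

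Before the comparisons, the arrays themselves need 3 facts. RNA integrity numbers ran from 8.9 (AC replicate 5 and LT replicate 3) to 9.8, and median signals of the arrays from 134 to 141. AC replicates 3 and 4 and LT replicates 2 and 5 were far above the rest in 21 choroid plexus genes, with list scores of 2.08 to 2.57 against -0.79 to 0.32 on the other 19. A list score is the mean over the genes of a list of log2 signal, each gene first centred on its mean over the 23 arrays. AC replicate 5 stood apart in another way: its mean correlation with the rest of its group, 0.983, was the lowest of any array and its scores were -0.472 for mature granule cell genes, -0.358 for CA1 pyramidal cell genes and 0.891 for microglial genes, each the most extreme of the 23. Markers of the labelled tissue were otherwise well above the minimum signal, with group means from 1360 to 1490 for C1ql3 (granule cells) and 2340 to 2720 for Wfs1 (CA1).

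Dcx and Sox11, the genes of immature neurons, had their highest average in young rats and lower averages in all 3 aged groups, but 1 aged control array was the highest of all 23 in both. Dcx encodes doublecortin, a microtubule-associated protein of migrating neuroblasts. Its signal in YC was 449 at the lowest, 592 at the median and 646 at the highest. The 5 AC arrays read 362, 549, 341, 416 and 806. In ST it was 339, 412 and 458 and in LT 361, 475 and 519 (lowest, median, highest). The YC and AC arrays overlapped, 4 of 6 YC arrays were above every ST and LT array, and AC replicate 5 at 806 was above every other array. The YC mean was 563.3 ± 89.8 (SD, n = 6), the AC mean 494.8 ± 191.9 (SD, n = 5), the LT mean 458 ± 62.63 (SD, n = 6) and the ST mean 407.7 ± 42.62 (SD, n = 6), and no neighbours in this order passed a test against each other.

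Sox11, a transcription factor that drives early neuronal genes, followed the same order of means, with YC above AC, LT and ST. The place of AC among the aged groups depended on AC replicate 5. Without it the AC mean was 99.75 for Sox11, below LT and ST, and 417 for Dcx, below LT. Its signal in YC was 122, 133.5 and 157 (lowest, median, highest). The AC arrays read 88, 110, 101, 100 and 201. In ST it was 90, 102.5 and 117 and in LT 84, 110 and 125. Every ST array was below every YC array, 1 LT array reached into the YC range, and 4 of the 5 AC arrays were below every YC array while AC replicate 5 was above them all. The YC mean was 136.7 ± 12.93 (SD, n = 6), the AC mean 120 ± 45.95 (SD, n = 5), the LT mean 109 ± 13.93 (SD, n = 6) and the ST mean 103.8 ± 10.76 (SD, n = 6).

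**Figure D1:**
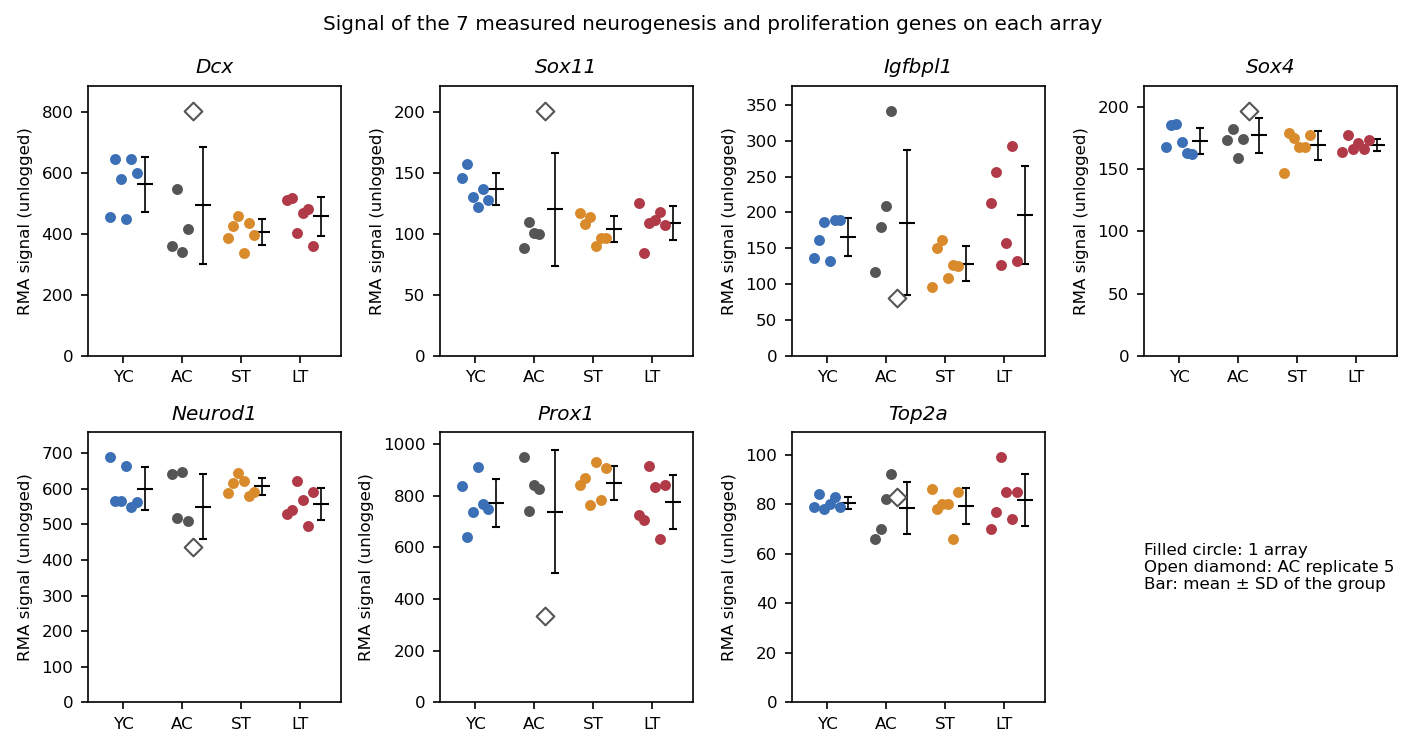
Unlogged RMA signal (vertical axes, each from 0) of the 7 measured genes on each array of YC, AC, ST and LT; points are arrays, the open diamond is AC replicate 5, and bars are group means ± SD. AC replicate 5 is the highest array for Dcx (806), Sox11 (201) and Sox4 (197) and the lowest for Igfbpl1 (81), Neurod1 (436) and Prox1 (333).

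Between AC and YC, none of the 7 genes passed the test across all 13339 probe sets (limma, Benjamini-Hochberg adjusted p under 0.05), where 9.75% of probe sets did, and none had an unadjusted p under 0.05. A one-way analysis of variance also called 0 of the 7. Dcx differed by -0.248 on the log2 scale (95% interval -0.597 to 0.102, adjusted p = 0.356 from limma). Sox11 differed by -0.25 (-0.556 to 0.055, adjusted p = 0.282). The intervals of both genes reach past the fall that the other AC arrays show, so a p over the threshold does not show equal levels.

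This result rested on 1 array. Without AC replicate 5, the 4 remaining AC arrays averaged 417 ± 93.5 (SD, n = 4) for Dcx and 99.75 ± 9.032 (SD, n = 4) for Sox11, and both genes were called lower in AC than in YC, 2 of 7 against 11.9% of all probe sets. Dcx then fell by 0.443 (standard error 0.136, limma adjusted p = 0.0386) and Sox11 fell by 0.454 (standard error 0.097, limma adjusted p = 0.00647). For Sox11, every remaining AC array was below every YC array, as was true of 3.58% of probe sets. Neither gene was called without the 4 choroid plexus arrays (Dcx -0.037, Sox11 -0.125), where 398 of 13339 probe sets were. That setting keeps AC replicate 5 and leaves 3 AC arrays. Without those 4 and AC replicate 5, Sox11 was called (-0.469, limma adjusted p = 0.0375) and Dcx was not (-0.321, limma adjusted p = 0.338). The part of tissue composition in this array was not tested.

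The other aged groups, which do not include that array, gave the same order. In ST against YC, where 4.15% of probe sets were called, 0 of the 7 genes passed and 2, Dcx and Sox11, had an unadjusted p under 0.05. Dcx was -0.457 from YC (standard error 0.161, limma adjusted p = 0.103, exact permutation test of the 2 groups p = 0.00649). Sox11 was -0.398 from YC (standard error 0.141, limma adjusted p = 0.106, exact permutation test p = 0.00216), and the non-overlap of its arrays was shared by 1.24% of probe sets. The spread that limma pools over the 4 groups holds the AC arrays. In a fit of ST and YC alone both genes were called (2 of 7, against 8.67% of probe sets), with adjusted p = 0.0191 for Dcx and 0.00755 for Sox11 from limma, and both were called with all groups but without AC replicate 5 (background 7.59%; limma adjusted p = 0.0257 and 0.00785).

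In LT against YC, 0 of 7 were called (1.03% of probe sets) and only Sox11 had an unadjusted p under 0.05. Dcx was -0.294 (standard error 0.161, limma adjusted p = 0.442) and Sox11 -0.332 (standard error 0.141, limma adjusted p = 0.296, exact permutation test p = 0.00433). Without AC replicate 5 Sox11 alone was called (limma adjusted p = 0.0407, background 2.83%). With all 3 aged groups averaged against YC, again none of the 7 passed (8.55% of probe sets), and 2, Dcx and Sox11, had an unadjusted p under 0.05. Dcx was -0.333 (standard error 0.132, limma adjusted p = 0.119) and Sox11 -0.327 (standard error 0.116, limma adjusted p = 0.082). Without AC replicate 5 they fell by 0.398 (limma adjusted p = 0.0143) and by 0.394 (limma adjusted p = 0.00151), against 12.5% of probe sets called. The F test across the 4 groups called 0 of 7 (5.46% of probe sets), and its smallest p among them was 0.0494 for Sox11 (limma adjusted p = 0.205). These comparisons share the YC arrays.

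FKBP1b vectors were compared with the control vector to ask whether the transgene moves these genes in aged rats. No member was called in ST against AC (0% of probe sets called), in LT against AC (0.075%) or in both FKBP1b groups averaged against AC (0.03%), and none had an unadjusted p under 0.05 in these 3 comparisons. Dcx was -0.209 in ST (95% interval -0.559 to 0.14) and -0.047 in LT (-0.396 to 0.303) from AC. Sox11 was -0.147 in ST (-0.453 to 0.159) and -0.081 in LT (-0.387 to 0.225). Without AC replicate 5 the LT differences turned to 0.149 and 0.122 and the ST differences came to -0.014 and 0.056, with limma adjusted p from 0.635 to 0.991. Neither a return toward the young level nor a further loss was detectable with 5 or 6 arrays a group. With all 5 AC arrays, the highest upper limits of these intervals were 0.303 for Dcx and 0.225 for Sox11, both in LT. In the same fit AC differed from YC by -0.248 and -0.25. A return of all of that difference for Dcx, and of most of it for Sox11, is thus not excluded. AC replicate 5 raised the AC mean in these fits, and without it the LT standard errors were 0.136 and 0.097.

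**Figure D2:**
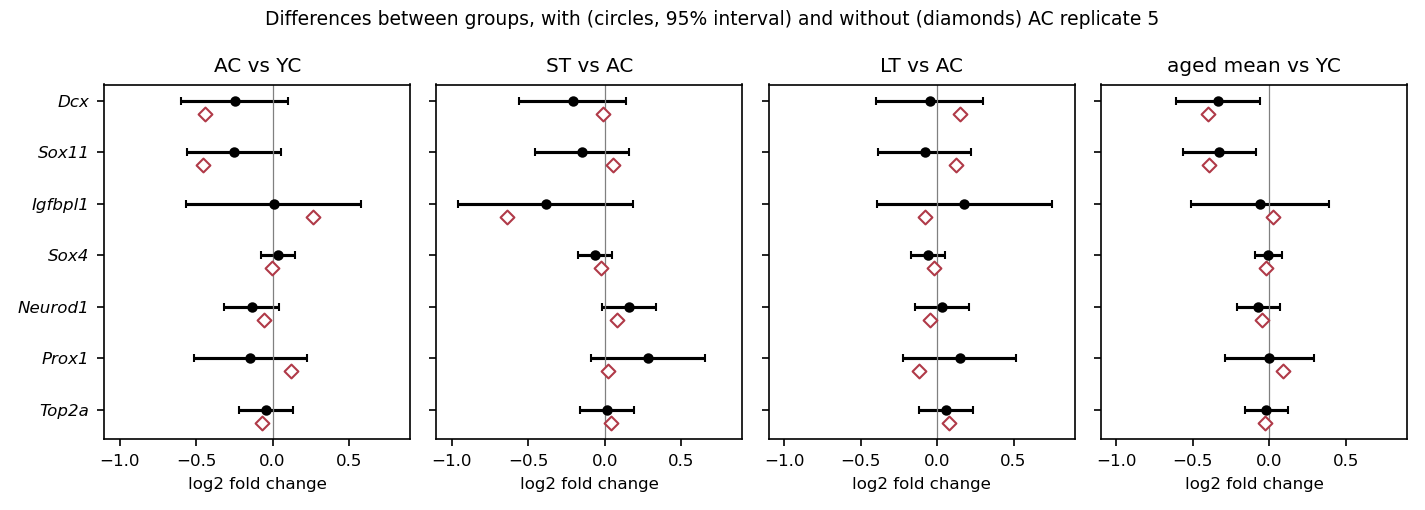
Log2 fold change (horizontal axes) of the 7 genes in AC against YC, ST against AC, LT against AC and the mean of the 3 aged groups against YC. Black circles with bars are limma estimates with unadjusted 95% intervals from all 23 arrays, and open diamonds are the estimates without AC replicate 5, which lie lower for Dcx and Sox11 in AC against YC (-0.443 and -0.454) and on the other side of 0 for Prox1 (0.121).

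Sox4, the close relative of Sox11 in the SoxC group, stayed near a single level in all groups. Its signal was 162, 170 and 186 (lowest, median, highest) in YC, 147, 171.5 and 179 in ST and 164, 168.5 and 177 in LT. The AC arrays read 173, 182, 159, 174 and 197. The groups overlapped throughout, and the highest array was again AC replicate 5. AC differed from YC by 0.034 (95% interval -0.077 to 0.146, limma adjusted p = 0.717), ST from AC by -0.066 and LT from AC by -0.059. Between ST and YC, Sox4 differed by -0.032 (95% interval -0.138 to 0.074). That interval leaves out a fall of the size that Sox11 showed in the same comparison (-0.398).

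Top2a, topoisomerase II alpha, which untangles chromosomes in dividing cells, was the only proliferation gene among the 10 with a probe set of its own. It read 78, 79.5 and 84 (lowest, median, highest) in YC, 66, 80 and 86 in ST and 70, 81 and 99 in LT, and 66, 70, 82, 92 and 83 on the AC arrays. Group means lay between 78.6 and 81.67 with all groups overlapping, and the YC arrays were the tightest, with an SD of 2.429 against 7.167 to 10.53 elsewhere. AC differed from YC by -0.044 (95% interval -0.222 to 0.133, limma adjusted p = 0.779), ST from AC by 0.016 and LT from AC by 0.056. Its highest signal on any array was 99, against a signal minimum of 40.

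Igfbpl1, an insulin-like growth factor binding protein-like gene known from neuroblasts, varied most among the 7. It read 132, 174 and 190 (lowest, median, highest) in YC, 96, 126.5 and 161 in ST and 127, 185.5 and 293 in LT. The AC arrays read 117, 180, 209, 342 and 81. The highest values were on AC replicate 4 (342), LT replicate 5 (293) and LT replicate 2 (256), all choroid plexus arrays, and the lowest was AC replicate 5. The 4 choroid plexus arrays ranged from 209 to 342 and the other 19 from 81 to 213. AC differed from YC by 0.008 (95% interval -0.564 to 0.581, limma adjusted p = 0.988). ST was -0.386 from AC, and LT was 0.179 from AC. Against YC, ST was at -0.377 (standard error 0.263, limma adjusted p = 0.431, exact permutation test p = 0.0325). LT stood 0.565 above ST (standard error 0.263, limma adjusted p = 0.383, exact permutation test p = 0.0411), the only one of the 7 with an unadjusted limma p under 0.05 there, in a comparison in which 0.0075% of probe sets and none of the 7 were called. Without the choroid plexus arrays, 2 of which are LT arrays, LT was 0.288 above ST (limma adjusted p = 0.694), and AC was -0.456 from YC.

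Neurod1 and Prox1, which carry the later steps of the lineage and persist in mature granule cells, did not share the pattern of Dcx and Sox11. Neurod1, a basic helix-loop-helix factor needed for granule neurons to form and survive, read 550, 566 and 689 (lowest, median, highest) in YC, 581, 604 and 643 in ST and 494, 554 and 622 in LT. Its AC arrays read 640, 518, 646, 509 and 436. AC differed from YC by -0.136 (95% interval -0.314 to 0.042, limma adjusted p = 0.318), ST from AC by 0.157 (limma adjusted p = 0.563) and LT from AC by 0.031. LT was -0.127 from ST (limma adjusted p = 0.52, exact permutation test p = 0.0433). The groups overlapped in each of these comparisons, and the lowest of all arrays was AC replicate 5.

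Prox1, the homeobox factor of granule cell identity, read 640, 758 and 911 (lowest, median, highest) in YC, 764, 855.5 and 929 in ST and 632, 780 and 917 in LT. Its AC arrays read 950, 741, 842, 825 and 333. The AC group thus held both the highest and the lowest array of the study. AC differed from YC by -0.144 (95% interval -0.516 to 0.227, limma adjusted p = 0.639) with all arrays and by 0.121 (standard error 0.099, limma adjusted p = 0.444) without AC replicate 5. ST was 0.284 and LT 0.148 from AC, with limma adjusted p of 0.625 and 0.753.

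Across the 23 arrays Dcx rose and fell with Sox11 and against Neurod1 and Prox1, while no pair of genes that included Sox4, Top2a or Igfbpl1 passed. Relations were computed for 133 pairs, 21 between the genes and 112 between genes and list scores, with permutation p-values adjusted over all 133. Dcx rose with Sox11 (Pearson r = 0.758, adjusted permutation p = 0.00053; Spearman rho = 0.7, adjusted p = 0.0025; r = 0.649 without AC replicate 5). Dcx ran against Prox1 (r = -0.776, adjusted permutation p = 0.00019; rho = -0.834, adjusted p = 0.00033; r = -0.739 without AC replicate 5). Neurod1 and Prox1 rose together (r = 0.771, adjusted permutation p = 0.00078; rho = 0.768, adjusted p = 0.0005). Leaving out the 2 arrays farthest from the median of the first gene gave 0.571, -0.685 and 0.693 for these 3 relations, and r after centring each gene on its group means was 0.669, -0.866 and 0.772. Dcx also ran against Neurod1 (r = -0.638, adjusted permutation p = 0.0078; rho = -0.625, adjusted p = 0.015; -0.494 without the 2 farthest arrays). The r of Dcx with Neurod1 after centring on group means was -0.836, so these opposite differences were present among arrays of the same group. Group means did not follow them throughout, since Dcx, Neurod1 and Prox1 were all lower in AC than in YC by uncalled log2 differences with all arrays (-0.248, -0.136 and -0.144). Sox11 ran against Prox1 by Pearson's r (r = -0.708, adjusted permutation p = 0.0076, r = -0.451 without AC replicate 5). By rank that pair did not pass (rho = -0.527, adjusted permutation p = 0.052).

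List scores placed these genes further. The score of 14 mature granule cell genes ran with Prox1 (r = 0.943, adjusted permutation p = 0.00019; rho = 0.835, adjusted p = 0.0005; 0.779 without AC replicate 5) and with Neurod1 (r = 0.8, adjusted permutation p = 0.00019; rho = 0.813, adjusted p = 0.00033). It ran against Dcx (r = -0.722, adjusted permutation p = 0.00053; rho = -0.804, adjusted p = 0.0005; -0.631 without AC replicate 5). For Sox11 the relation with that score (r = -0.612, adjusted permutation p = 0.051; rho = -0.434, adjusted p = 0.14) rested on AC replicate 5, since r was -0.203 without it. Leaving out the 2 farthest arrays gave 0.787, 0.804, -0.671 and -0.218. The score of 7 CA1 pyramidal cell genes likewise ran with Prox1 (r = 0.906, adjusted permutation p = 0.00033, r = 0.68 without AC replicate 5). It also ran with Neurod1 (r = 0.773, adjusted permutation p = 0.00019) and against Dcx (r = -0.646, adjusted permutation p = 0.0076). Without AC replicate 5 these were 0.652 and -0.441. The relations were thus not particular to granule cell genes. The score of 13 genes of the subventricular zone and of interneurons, among them Dlx5, Gad2 and Meis2, ran with Dcx (r = 0.75, adjusted permutation p = 0.0006; rho = 0.851, adjusted p = 0.00033; 0.776 without the 2 farthest arrays; 0.854 without AC replicate 5). The list of 45 genes of intermediate progenitors and neuroblasts also holds genes of neurons in general, such as Tubb3 and Gpm6a. Its score ran with Dcx by rank (rho = 0.607, adjusted permutation p = 0.022). By Pearson's r this relation did not pass (r = 0.469, adjusted permutation p = 0.12). That r was 0.792 without the 2 farthest arrays and 0.816 without AC replicate 5. On this list AC replicate 5, the highest array for Dcx, scored -0.057, below every YC array. Dcx also ran with the score of 15 oligodendrocyte precursor genes (r = 0.642, adjusted permutation p = 0.0076, r = 0.632 without AC replicate 5). By rank this passed too (rho = 0.644, adjusted permutation p = 0.011), so the relations of Dcx were not confined to neuronal lists. The shares of dentate gyrus, CA fields and neighbouring tissue in each sample cannot be told apart from gene regulation within them.

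**Figure D3:**
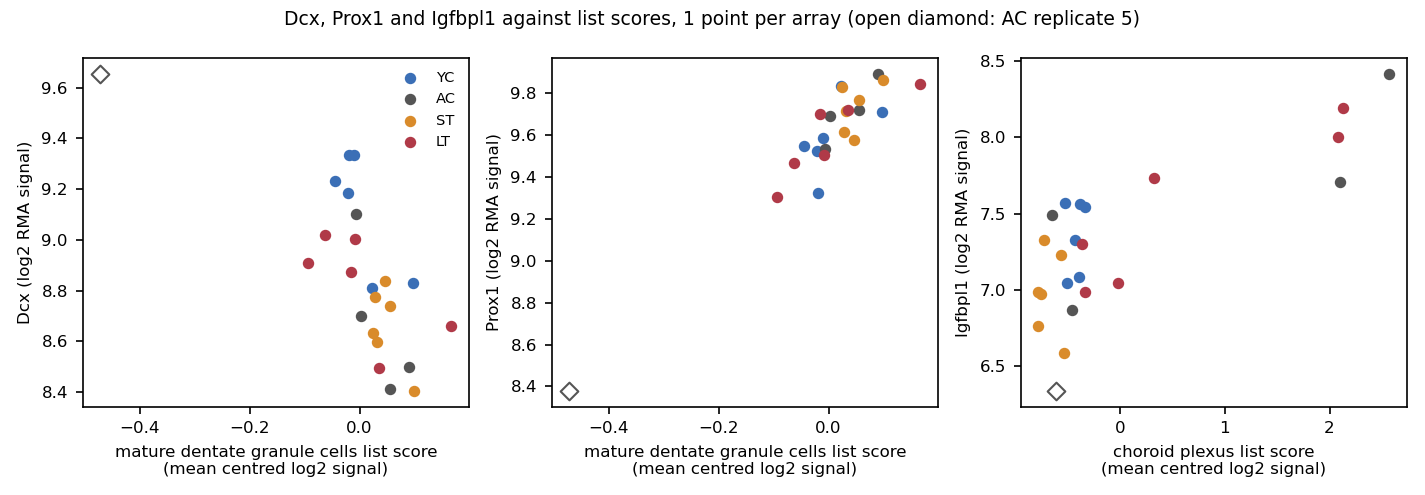
Log2 RMA signal (vertical axes) against a list score (horizontal axes), 1 point for each of 23 arrays, for Dcx and Prox1 with the 14 mature granule cell genes and for Igfbpl1 with the 21 choroid plexus genes. Dcx falls (r = -0.722) and Prox1 rises (r = 0.943) with the granule cell score, where AC replicate 5 (open diamond) lies alone at -0.472, and the 4 choroid plexus arrays, at 209 to 342, lie apart on the right of the Igfbpl1 panel.

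The arrays fell into separate clusters of choroid plexus score, so Igfbpl1 was related to it only within the 19 arrays of the lower cluster. There the relation with choroid plexus genes did not pass (r = 0.421, permutation p = 0.073; rho = 0.433, p = 0.065, 0.323 without the 2 farthest arrays). It passed with 11 ependymal genes (r = 0.51, permutation p = 0.026, adjusted over 3 lists 0.039; rho = 0.591, adjusted p = 0.013; 0.497 without the 2 farthest) and with 7 Cajal-Retzius genes (r = 0.867, adjusted permutation p = 3e-05; rho = 0.89, adjusted p = 3e-05; 0.863 without the 2 farthest). Cajal-Retzius cells are early-born neurons that line the hippocampal fissure, at the border of the dentate gyrus. Calb2 of this list is also on the progenitor and neuroblast list. Over all 23 arrays Igfbpl1 ran against the score of 17 CA2 and CA3 genes (r = -0.649, adjusted permutation p = 0.0076). By rank this passed too (rho = -0.562, adjusted permutation p = 0.043), and r was -0.433 without the 2 farthest arrays. Top2a ran with the 45 genes of G2 and M phase (r = 0.595, adjusted permutation p = 0.019; rho = 0.591, adjusted p = 0.028; 0.561 without the 2 farthest arrays). Sox11 ran with the same score by Pearson's r (r = 0.577, adjusted permutation p = 0.024, r = 0.566 without AC replicate 5). By rank Sox11 did not pass (rho = 0.518, adjusted permutation p = 0.054).

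The genes most like Dcx over the 23 arrays among the 13339 tested were Adra2a (r = 0.939), Gap43 (0.925), Kcnn3 (0.907), Plcxd3 (0.898) and Sgsm1 (0.89). All 5 were at their highest on AC replicate 5, and their r without it was 0.914, 0.898, 0.894, 0.868 and 0.853. Adra2a encodes an adrenergic receptor and Gap43 a protein of growing axons. The genes most like Prox1 were Sema5a (0.977), which is on the granule cell list, Chst15 (0.975), Kctd4 (0.967), Dnajb13 (0.963) and Dagla (0.963), all 5 at their lowest on AC replicate 5. Those most like Top2a were Myh7b (0.832), Svs1 (0.788), Nphs1 (0.764), Svbp (0.758) and Mamdc4 (0.755), of which none is on a cell cycle list used here. Centred on group means, r for the 15 genes lay between 0.77 and 0.986.

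Genes of the surrounding pathway were counted from 16 lists, of which 335 genes were tested. Of these, 48 were called between AC and YC, 35 higher and 13 lower, and 1, the endothelial gene Pecam1, when ST and LT were averaged against AC, where it was lower. Medians of a list stand beside a median of -0.006 over all 13339 probe sets. Among 45 genes of intermediate progenitors and neuroblasts, 5 were lower in AC and 0 higher, with a median of -0.063, a share near the 9.75% called over all probe sets. Sema3c, a guidance cue, fell by 0.434 (standard error 0.060, limma adjusted p = 0.000307). Nrep fell by 0.295, Sstr2, a somatostatin receptor, by 0.214, Nhlh2, a basic helix-loop-helix factor, by 0.171 and Gpm6a, a membrane glycoprotein of neurites, by 0.125. Without AC replicate 5, 12 genes of this list were lower and 2 higher, 14 of 45 against 11.9% of all probe sets, and the lower ones took in Dpysl3 (-0.277), Gap43 (-0.355), Neurod4 (-0.408), Elavl4 (-0.258), Tubb3 (-0.147) and Tubb2b (-0.187), genes of axon growth, early neuronal identity and neuronal tubulin. Slc12a2 (0.315) and Cdh13 (0.153) were higher. Without the choroid plexus arrays 3 genes of the list were lower and 0 higher. In that setting 398 of all 13339 probe sets were called, against 1300 with all arrays.

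Among 18 genes of neural stem cells and radial glia, 2 were higher, Vim by 0.674 (standard error 0.101, limma adjusted p = 0.000514) and Rest by 0.269, and 2 were lower, Hes5 by 0.204 and Etv4 by 0.110. Vim encodes vimentin, an intermediate filament that reactive astrocytes also carry, Rest a repressor of neuronal genes and Hes5 a Notch target. The list's median was 0.01. Without the choroid plexus arrays 0 genes of the list were lower and 2 higher, where 398 of all 13339 probe sets were called. There Hes5 was at -0.15 (limma adjusted p = 0.249), Etv4 at -0.07 (0.323) and Rest at 0.178 (0.0865). Sox2 and Nes, defining genes of stem cells, differed by -0.089 (limma adjusted p = 0.357) and 0.049 (limma adjusted p = 0.616).

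Few genes of cell division were called. Of 45 genes of G2 and M phase, 5 were lower in AC and 0 higher, with a median of -0.058: Racgap1 fell by 0.217, Mybl2 by 0.247, Smc4 by 0.180, Ndc80 by 0.263 and Cdca8 by 0.254, with limma adjusted p from 0.0186 to 0.0418. The same 5 were called lower without AC replicate 5. Without the choroid plexus arrays the count was 2, where 398 of all 13339 probe sets were called. The share called, 5 of 45, was near the 9.75% of all probe sets. Smc4 is a condensin subunit, Ndc80 a kinetochore protein and Mybl2 a transcription factor of cycling cells. Ndc80 averaged 41.3 in YC and 34.6 in AC, close to or under the signal minimum of 40. Of 32 genes of S phase, 1 was higher, Cdk6 (0.448, limma adjusted p = 0.0277), and none lower, with a median of -0.027. Cdk6 was not called without AC replicate 5 (0.346, limma adjusted p = 0.0647) or without the choroid plexus arrays and AC replicate 5 (0.124), and without AC replicate 5 alone the list held 0 higher and 1 lower. The 7 measured neurogenesis genes themselves had a median of -0.136, with 5 below 0 and 2 above.

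**Figure D4:**
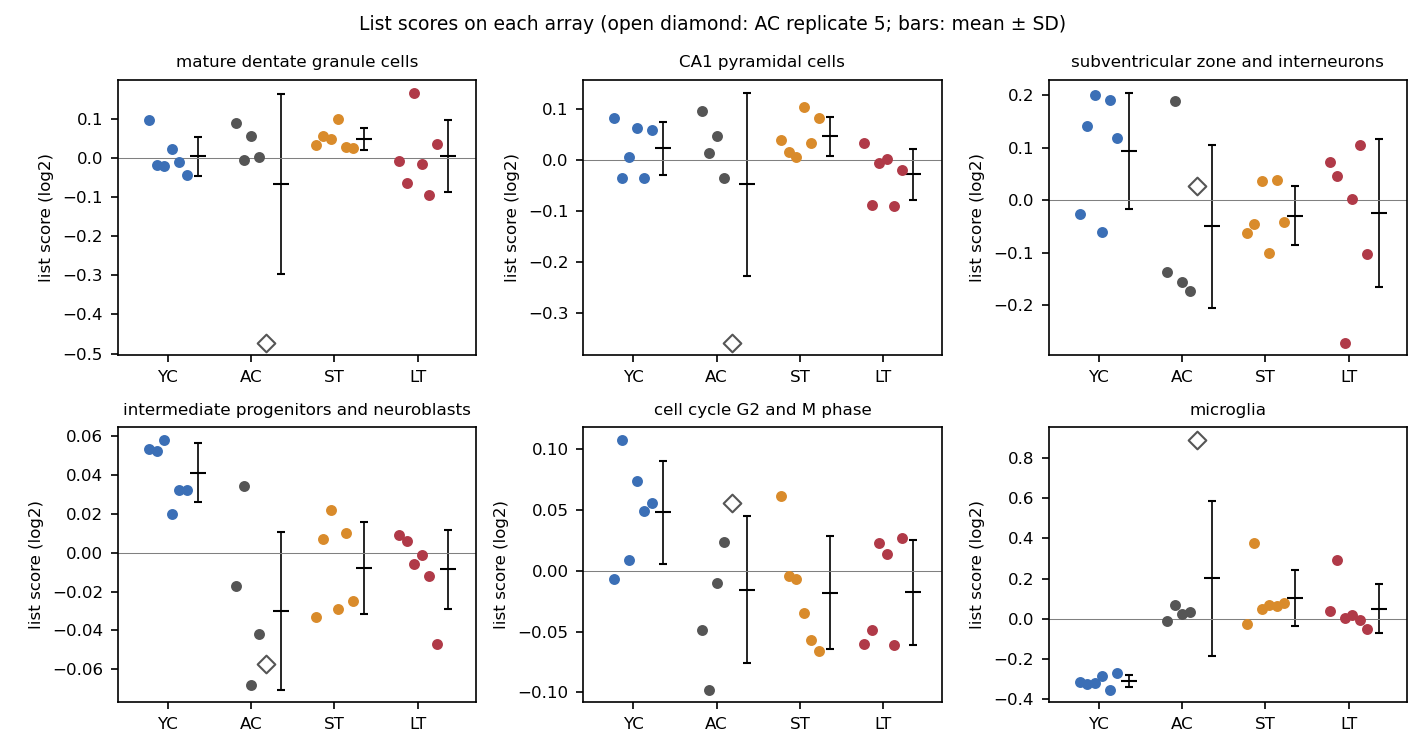
List scores (vertical axes, log2 units, each axis with its own range) on each array for 6 lists; points are arrays, the open diamond is AC replicate 5, and bars are group means ± SD. Neuroblast scores ran from 0.02 to 0.058 in YC. Of the AC arrays only replicate 2 (0.034) lies in that range, while AC replicate 5 is at -0.057. The highest neuroblast score of any LT array is 0.009, and ST arrays peak at 0.022. Microglial scores of every aged array are above every YC array, and AC replicate 5 lies alone at the bottom for granule cell (-0.472) and CA1 genes (-0.358).

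Among 45 genes of niche signals, 5 were higher and 1 lower in AC, with a median of -0.002. Tgfb1 rose by 0.511, Vegfa by 0.468, Bmp6 by 0.304, Jag1, a Notch ligand, by 0.188 and Lef1 by 0.145, while Wnt3a, a ligand that promotes granule neuron production, fell by 0.217. Without the choroid plexus arrays 2 were higher and 0 lower, where 398 of all 13339 probe sets were called. There Vegfa (0.182) and Bmp6 (0.21) were not called (limma adjusted p = 0.125 for both). The part of choroid plexus tissue was not tested. The lists of single neuron types gave no calls, with 0 of 14 granule cell genes (median -0.038), 0 of 7 CA1 genes (-0.103) and 0 of 17 CA2 and CA3 genes (0.025). The same held for 0 of 13 subventricular zone and interneuron genes (-0.097) and 0 of 7 Cajal-Retzius genes (0.009). Oligodendrocyte precursor genes were likewise not called (0 of 15, median -0.064).

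Of 20 microglial genes 16 were higher in AC (median 0.494), 9 of 14 endothelial genes were higher (0.246), and 1 of 15 lymphocyte genes was, Cd4 (0.997), which rat microglia and macrophages also express. Of 11 ependymal genes 1, Dnah12, was higher (median 0.121). All 21 choroid plexus genes were above YC in AC with a median of 0.935 and none was called. Without the 4 choroid plexus arrays, 2 of them in AC, the medians were -0.145 for choroid plexus and -0.014 for ependymal genes, and Dnah12 was not called (0.255, limma adjusted p = 0.212). There 14 microglial and 5 endothelial genes were higher, in a setting where 398 of all 13339 probe sets were called. Microglial scores ran from -0.353 to -0.271 in YC and from -0.049 to 0.891 in the aged groups. Over the 23 arrays their relations with Sox11 (rho = -0.515, adjusted permutation p = 0.054) and Dcx (rho = -0.17, adjusted permutation p = 0.66) did not pass. Pearson's r was 0.012 and 0.093 with all arrays, -0.759 and -0.471 without AC replicate 5, and 0.608 and 0.691 after centring on group means. The part of microglia in the lower Sox11 and Dcx signals of aged rats was not tested.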

How the data were processed

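Dorsal hippocampal RNA was measured on Rat Gene 1.0 ST arrays from Affymetrix, and the deposited values are signal intensities that the authors made with the Robust Multiarray Average algorithm, unlogged and rounded (Partek and RMA are named in the submitters' processing notes, with no version). Of 29211 probe sets, 13339 with a signal of at least 40 on 4 arrays and 1 gene symbol in the platform annotation were tested on log2 signals with limma 3.58.1 in R 4.3.3. The fit held a mean per group, and Benjamini-Hochberg adjustment ran over all 13339, with calls at 0.05. The 23 samples were grouped from the labels, and each is 1 rat. Exact permutation tests compared 2 groups for single genes, with a smallest p of 0.0022 for 6 against 6 arrays. Correlations used 100000 permutations, all two-sided. The fit was tested on simulated data.

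The 10 genes and the 16 lists were chosen with earlier results of these data known. Text names the 10 genes, those of the 4 smallest p in each other list that passed, and the 5 genes most like Dcx, Prox1 and Top2a. Other genes, and the comparison of the 3 aged groups together with YC, were chosen after their values were seen. Alternatives were leaving out each array, analysis of variance with the LSD, other signal minimums, normalizations, weights, covariates, a replicate block, and, chosen after seeing the data, leaving out or adjusting for choroid plexus arrays. Number of arrays limits precision.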

Additional observations from a re-analysis of the deposited data

Results flagged for a closer look

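Among 28 groups of arrays, 1 for each measured gene and group, 2 held a value far from the others by Dixon's ratio of the gap to the range, of which chance flags about 1 in 20. The Sox11 signal of AC replicate 5 was 201 (ratio 0.805, critical value 0.71 for 5 arrays), against 88 to 110 on the other AC arrays. The Sox4 signal of ST replicate 1 was 147 (ratio 0.656, critical value 0.625 for 6 arrays), against 168 to 179 on the other ST arrays.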

How the results depend on the processing

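With 5 or 6 arrays a group, the calls for the 7 genes turned on AC replicate 5 and on how arrays and covariates enter the fit; the cause was not tested. Leaving out 1 array at a time, the number of the 7 called ranged from 0 to 2 in AC vs YC, ST vs YC and the aged mean vs YC, and from 0 to 1 in LT vs YC and in the F test; every nonzero count in AC vs YC came without AC replicate 5. Array weights called 1 in AC vs YC (Sox11), 2 in ST vs YC and 2 in the aged mean. The granule cell score as a covariate called 2 in AC vs YC, 1 in ST vs YC, 2 in the aged mean and 1 in the F test. The RNA integrity number as a covariate called 1 in the aged mean, and the compared groups alone called 2 in ST vs YC. Without the choroid plexus arrays or AC 5, counts were 1 in AC vs YC, 2 in ST vs YC, 2 in the aged mean and 1 in the F test. In ST vs AC, LT vs AC, their mean vs AC and LT vs ST no alternative called any of the 7.

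The 48 of 335 listed genes called in AC vs YC became 14 with the compared groups alone, 29 without the choroid plexus arrays and 19 without those or AC 5. Over all 13339 probe sets, 1300 were called with all arrays and 398 without the choroid plexus arrays. The fall in calls was thus not particular to the lists. The 1 listed gene of ST and LT vs AC became 0 with analysis of variance, with the replicate block, with the compared groups alone, without the choroid plexus arrays and without those or AC 5, and ranged from 0 to 8 with 1 array left out (8 when AC replicate 1 was left out, 4 for AC replicate 2 and 0 for each other AC array). For single named genes over all alternatives, 2004 values kept their direction and side of the threshold, 113 no longer passed, 25 newly passed and 50 changed sign.

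None of the values that changed sign had passed the test. In AC vs YC, Sox4 was -0.013 with array weights and from -0.005 to 0.072 with 1 array left out, and Top2a ran from -0.104 to 0.016. Igfbpl1 was -0.022 with equal array medians, -0.008 with quantile normalization, -0.011 with the replicate block, -0.456 without the choroid plexus arrays, -0.399 with their score as a covariate, -0.176 without those arrays or AC 5, and from -0.255 to 0.265 with 1 array left out. Prox1 was 0.046 with array weights, 0.029 with the granule cell score, 0.126 without the choroid plexus arrays or AC 5 and from -0.257 to 0.121 with 1 array left out. In ST vs AC, the granule cell score gave 0.023 for Dcx and 0.029 for Sox11, and leaving out choroid plexus arrays and AC 5 gave 0.071 for Sox11. Igfbpl1 was 0.079 without the choroid plexus arrays and 0.127 with their score. With 1 array left out, Sox11 ran from -0.242 to 0.056 and Top2a from -0.045 to 0.075. In LT vs AC, array weights gave 0.128 for Dcx, 0.074 for Sox11, -0.106 for Igfbpl1, -0.041 for Neurod1 and -0.035 for Prox1. The granule cell score gave 0.096, 0.027, -0.039 and -0.025 for Dcx, Sox11, Neurod1 and Prox1. Without the choroid plexus arrays or AC 5, Sox11 was 0.197, Neurod1 0 and Prox1 -0.021. With 1 array left out, Dcx ran from -0.162 to 0.149, Sox11 from -0.176 to 0.122, Top2a from -0.004 to 0.116, Igfbpl1 from -0.077 to 0.442, Neurod1 from -0.049 to 0.093 and Prox1 from -0.118 to 0.26.

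The replicate numbers did not pair the arrays: of 33 same-numbered pairs 7 correlated over 0.1 (range -0.385 to 0.208), and 1 of 23 arrays correlated best with its own number. With the replicate block, 0 of the 7 genes were called in any comparison and 45 listed genes in AC vs YC. No member has another probe set, so that alternative was not run.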
